A study of Mus musculus with 2 samples.

Results

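In newborn mouse liver, 656 of 26844 EP300 peaks (2.44%) had their summit at a divergent promoter, where a pair of protein-coding genes start close together and are read away from each other. EP300, also known as p300, acetylates histones and other proteins, and it is brought to active promoters and enhancers by DNA-binding factors. At a divergent, or bidirectional, promoter the starts of a minus-strand and a plus-strand gene lie head to head, so that 1 short stretch of DNA serves both. Such promoters are often CpG islands without a TATA box, and many of their genes have housekeeping roles in mitochondria, translation, the cell cycle and DNA repair. The members were chosen by position alone. A summit was taken when it lay within 1 kb of a plus-strand protein-coding transcription start site (TSS) and within 1 kb of a minus-strand one of another gene, with the minus-strand start at the lower coordinate. The list used was the authors' optimal list, thresholded by the irreproducible discovery rate (IDR), on chromosomes 1 to 19 and X of build mm10, and the starts were those of GENCODE M21. The 656 peaks fell at 512 gene pairs, each written minus-strand gene first (Taf6/Cnpy4). For 22 of the peaks 2 pairs were possible, and the pair nearest to the summit was used.

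The data were chromatin immunoprecipitation sequencing (ChIP-seq) of EP300 from the liver of B6NCrl mice at age 0 days, sex not collected, with a control alignment and no genotype or treatment given. They form 1 group of 2 replicates, both labelled with 1 biosample and 1 donor. Whether they come from separate animals is not stated, so their spread may be technical. With 1 group there is no comparison of conditions and no test was run. The values are descriptions, and each interval is an exact 95% Clopper-Pearson interval that covers the counting of peaks, genes or windows only. Each value called signal is the authors' score for a peak, on a scale that is not stated. Read depth is unknown, since the lists hold no read counts. As a check of the tissue label, a summit lay within 10 kb of a start for 6 of 7 hepatocyte markers and 7 of 7 erythroid markers, for 3 of 3 endothelial and 2 of 3 neutrophil markers, and for 0 of 4 macrophage, 0 of 3 bile duct and 0 of 3 lymphocyte markers. The share of all genes with a summit within 10 kb of a start was not computed, so these counts describe the markers only. The newborn liver still holds blood-forming cells, and the peaks cannot be divided by cell type.

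The DNA between the starts is shown first for 3 of the strongest peaks, since their base composition and motifs differ from each other. Mcm4/Prkdc, a textbook divergent pair with a peak of moderate height, follows with a dense set of factor motifs. Atm/Npat, another textbook pair, closes the set with a weak peak and no match between the starts. All were read from the GRCm38.p6 reference (the assembly of mm10), on the plus strand, 5′ to 3′. Where the starts lie over 300 bases apart, the 300 bases nearest to the summit are given, and stretches that the annotation calls exons were left out. Capitals mark matches to the 17 motifs described further down. The stretches are chr5:138187227-138187390 for Taf6/Cnpy4, chr10:40883312-40883474 for Cdc40/Wasf1, chr11:87108934-87109233 for Prr11/Ska2, chr16:15637401-15637700 for Mcm4/Prkdc and chr9:53536741-53537040 for Atm/Npat.
Taf6/Cnpy4: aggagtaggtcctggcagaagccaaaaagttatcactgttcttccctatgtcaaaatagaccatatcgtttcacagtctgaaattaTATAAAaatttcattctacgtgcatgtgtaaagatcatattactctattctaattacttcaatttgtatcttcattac
Cdc40/Wasf1: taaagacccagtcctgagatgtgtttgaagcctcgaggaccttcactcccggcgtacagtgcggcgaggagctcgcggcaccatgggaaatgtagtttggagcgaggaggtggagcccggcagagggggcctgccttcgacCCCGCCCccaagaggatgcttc
Prr11/Ska2: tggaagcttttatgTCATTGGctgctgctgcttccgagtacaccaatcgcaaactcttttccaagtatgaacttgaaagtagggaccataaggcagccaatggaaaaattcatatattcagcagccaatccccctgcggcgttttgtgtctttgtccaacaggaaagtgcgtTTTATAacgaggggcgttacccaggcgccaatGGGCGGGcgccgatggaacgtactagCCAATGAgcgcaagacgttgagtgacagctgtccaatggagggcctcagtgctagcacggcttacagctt
Mcm4/Prkdc: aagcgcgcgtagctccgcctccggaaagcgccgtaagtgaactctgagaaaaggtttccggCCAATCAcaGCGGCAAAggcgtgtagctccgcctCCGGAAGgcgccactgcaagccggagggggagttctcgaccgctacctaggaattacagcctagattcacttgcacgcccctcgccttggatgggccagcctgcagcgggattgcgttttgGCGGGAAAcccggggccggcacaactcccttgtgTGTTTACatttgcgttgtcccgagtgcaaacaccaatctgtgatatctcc
Atm/Npat: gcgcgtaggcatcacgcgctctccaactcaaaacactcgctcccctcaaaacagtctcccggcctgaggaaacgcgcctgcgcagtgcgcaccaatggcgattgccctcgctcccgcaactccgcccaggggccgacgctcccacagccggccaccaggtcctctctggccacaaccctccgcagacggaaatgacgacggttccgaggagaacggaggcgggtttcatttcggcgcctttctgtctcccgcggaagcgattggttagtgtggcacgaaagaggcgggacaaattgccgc
The stretch at Taf6/Cnpy4 was AT-rich, with 32.3% G and C and 2 CpG dinucleotides in 164 bases, and its summit lay at base 87, the first base of its single capital run, a TATAAA match. A further annotated start of Taf6 lies in the part of the interval that was left out. Prr11/Ska2 carried 15 CpGs in 300 bases, a GC box (GGGCGGG) and 2 matches to the CCAAT box motif (CCAATCA or CCAATGA), 1 on each strand. Its summit at base 176 fell inside a match to the TATA box on the minus strand. Mcm4/Prkdc held 25 CpGs, a match to the CCAAT box motif, an ETS motif (CCGGAAG), a FOXA motif and 2 E2F motifs within its 300 bases. The summit of Mcm4/Prkdc fell at base 101, inside the ETS match. CCAAT followed by other bases also occurs in these stretches and is not in capitals. Atm/Npat was the richest in CpG, with 32 in 300 bases and 63.7% G and C, and it had no match to any of the motifs. The summits of Cdc40/Wasf1 and Atm/Npat lay outside the stretches shown, 69 bases inside Cdc40 and within Atm.

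The strongest peaks stood at gene pairs of very different function. At Taf6/Cnpy4 (chr5:138187174-138187452) the signal was 406 in the optimal list, 264 in replicate 1 and 143 in replicate 2. Taf6 encodes a subunit of the general transcription factor TFIID. Cdc40/Wasf1 (chr10:40883108-40883371) had 400 in the optimal list, 254 in replicate 1 and 145 in replicate 2. Cdc40 encodes a splicing factor and Wasf1 a regulator of actin. These 2 peaks stood well above the rest of the members in both replicates, and ranked 129 and 147 among all peaks of the list. Prr11/Ska2 (chr11:87108917-87109300) had 207 in the optimal list, 130 in replicate 1 and 78.8 in replicate 2, and Ska2 encodes a protein of the spindle and kinetochore.

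The 11 peaks ranked just below it among the members had signals between 158 and 185. Metabolic genes stood in several of these pairs. Bckdha/Exosc5 had a signal of 182 and holds the gene of a subunit of the branched-chain ketoacid dehydrogenase beside that of an RNA exosome subunit. Aldh6a1/Lin52 (180) joins an enzyme of valine breakdown to a subunit of the cell cycle repressor complex DREAM. Styxl1/Mdh2 (166) holds mitochondrial malate dehydrogenase. Genes of RNA, chromatin and the ribosome made up others, with 179 at Hnrnpa2b1/Cbx3 (an RNA-binding protein and the heterochromatin protein HP1 gamma), 168 at Dnajb4/Fubp1, 167 at Zwilch/Rpl4 (a kinetochore protein and a ribosomal protein) and 162 at Pdap1/Bud31. Prepl/Camkmt had 185, and Recql/Golt1b, which holds a DNA helicase gene, had 179. Alg2/Sec61b, a sugar transferase of the endoplasmic reticulum and a subunit of its protein channel, had 164, and Gpr137/Bad, which holds a regulator of cell death, had 158. All of the 15 strongest members were higher in replicate 1 (99.8 to 264) than in replicate 2 (38.2 to 145). In 11 of the 15 the summit lay between the starts, in 3 within the minus-strand gene and in 1 within the plus-strand gene.

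The 5 weakest peaks were those of Trmt13/Sass6 (7.67), Acot8/Zswim3 (7.65), Rps18/Vps52 (7.57), Cdk2/Pmel (7.46) and Urod/Hectd3 (7.36). Their places overlapped peaks of 36.4 to 53.5 in replicate 1 at all but Cdk2/Pmel, where the value was 8.57. Each of these pairs also held a stronger member, of 71.7, 95.3, 63.9, 24.3 and 49.7 in the same order. The 5 are thus the weaker peaks of their pairs and do not mark the pairs with the weakest signal. Neighbouring peaks of a list can overlap, so a weak member can be matched to the peak of a strong neighbour. Of the members, 219 (33.4%) overlapped another peak of the optimal list, against 17.1% of all peaks.

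As a class, the divergent promoters were neither the strongest nor the weakest places of EP300. Their signal had a median of 40.9 (middle 50% from 27.2 to 60.5, n = 656), against 36.5 over 4829 peaks at promoters of a single gene and 38.7 over 21237 distal peaks. The log2 ratio of the divergent to the single-gene median was 0.16 in the optimal list, 0.26 for the same places in replicate 1 and 0.11 in replicate 2 (SD of both replicates 0.10). The ratio was thus positive in both replicates and not much larger than the spread between them. A stricter match, replicate summits within 100 bases, was chosen after seeing the data. It gave medians at divergent and single-gene promoters of 30.8 and 26.9 in replicate 1. In replicate 2 they were 13.2 and 13.0, so nearly equal. Distal peaks reached higher. Their 90th percentile was 132, against 93.0 at divergent promoters, and 3 members (0.457%) stood among the 1000 strongest peaks, against 3.73% of all peaks. In the top 25% of the list lay 22.7% of the members and in the bottom 25% lay 23.9%.

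**Figure D1:**
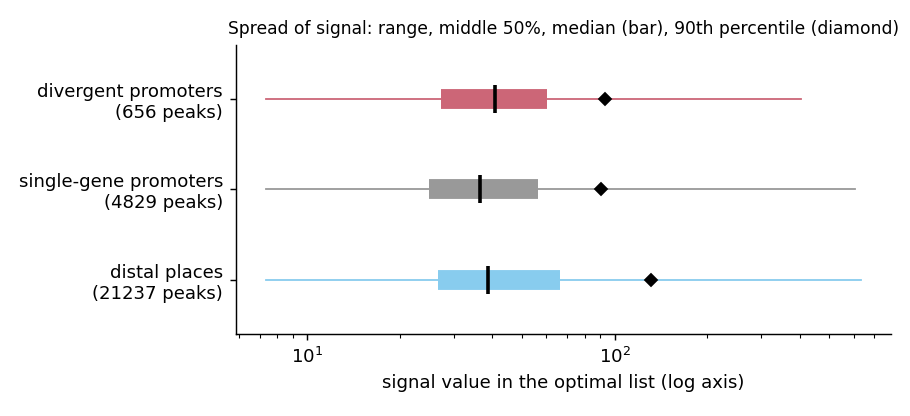
Signal value of optimal-list peaks on a log axis (the authors' score, no unit) at divergent promoters, single-gene promoters and distal places, with thin lines for the whole range, thick bars for the middle 50%, black bars for the median and diamonds for the 90th percentile. The medians of 40.9, 36.5 and 38.7 lie close together, while the 90th percentile of distal peaks, 132, lies above that of the divergent promoters, 93.0.

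Matched by an overlap of at least 1 base, members ranked higher than the list as a whole in replicate 1 and close to it in replicate 2. In replicate 1 the median rank of the matched peak was 9640 for the divergent promoters and 12723 for all peaks, and in replicate 2 it was 12568 and 12438. One of the highest peaks of replicate 1, as many as the optimal list holds, overlapped 605 members (92.2%, 89.9 to 94.2), against 85.9% of all peaks. For replicate 2 the count was 491 (74.8%, 71.3 to 78.1), against 76.4% of all peaks. The members' share thus lay above the background in replicate 1 and within counting error of it in replicate 2. The conservative IDR list also held 443 of the members (67.5%, 63.8 to 71.1), below the 74.4% of all peaks and close to the 67.2% of single-gene promoter peaks. A peak of any rank was found in both replicates for 595 members (90.7%), below the 95.7% of all peaks and close to the 92.7% of single-gene promoter peaks. With the stricter rule that a replicate's summit lie within 100 bases, an alternative chosen after seeing the data, the count was 445 (67.8%). This share was 81.5% for all peaks and 70.6% for single-gene promoter peaks.

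Signal was higher in replicate 1 for 564 of these 595 members. The median log2 ratio of replicate 1 to replicate 2 was 1.24 (SD 0.74), against 1.10 at single-gene promoters and 0.95 over all peaks. With matched summits it was 1.18, 1.08 and 0.94, so the order of the classes was the same. Across the 595 members, which share both libraries and are not independent, the signals of the replicates gave Spearman's rho 0.596 and, on the log2 scale, Pearson's r 0.638. The ratio ran to 3.58 at Armh1/Tmem53, where replicate 1 gave 41.4 and replicate 2 gave 3.47, and to 3.25 at Aimp1/Tbck, with 61.3 and 6.45. At the other end lay Dnajc7/Nkiras2 with −1.76, from 6.31 and 21.3, and a second peak of Aldh6a1/Lin52 with −1.10, from 12.7 and 27.2. What sets the ratio was not tested.

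**Figure D2:**
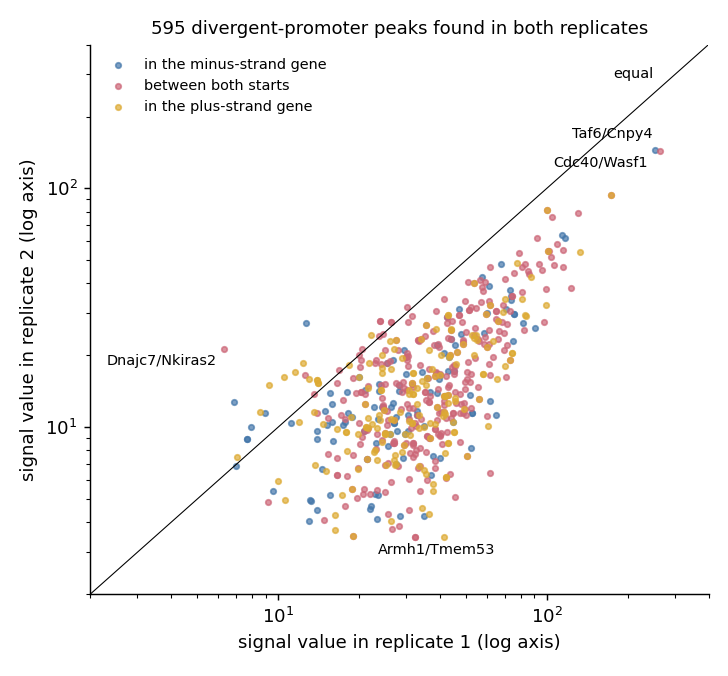
Signal value in replicate 1 against replicate 2, both on log axes (the authors' score, no unit), for the 595 divergent-promoter peaks matched in both, with colours for the place of the summit and a line of equal values. Most points (564) lie on the side of replicate 1, and Taf6/Cnpy4 and Cdc40/Wasf1 lie apart at the top in both.

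Genes in divergent pairs had an EP300 peak more often than genes in no pair, in a count where each shared peak served both genes. A pair was counted when its closest minus-strand and plus-strand starts lay at most 1000 bases apart, which gave 1096 pairs of 2156 genes among 21670 (9.95%). A member peak was found at 525 pairs (47.9%, 44.9 to 50.9). Here a peak counted for every pair that the 1 kb rule allowed, at any of the starts of its genes. The 512 pairs named at the opening take only the nearest pair of each peak. Counted by gene, 1093 of 2156 genes in a pair (50.7%, 48.6 to 52.8) had a summit within 1 kb of a start, against 3768 of 19514 genes in no pair (19.3%, 18.8 to 19.9) and 22.4% of all genes. Each peak of a pair counts for both of its genes, and each such gene can be counted through its partner's start. Per 100 genes in pairs there were 24.4 pairs with a peak.

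CpG content differed strongly between the classes of peaks and went with these shares. The ratio of observed to expected CpG in the 300 bases around the summit had a median of 0.809 at divergent promoters, 0.651 at single-gene promoters and 0.217 at distal peaks. A ratio of at least 0.6, called CpG-rich here, was reached by 83.5%, 55.8% and 3.33% of them. Among genes with a CpG-rich start, 948 of 1799 in a pair (52.7%) and 2699 of 9157 in no pair (29.5%) had a peak. Among CpG-poor genes the shares were 40.6% and 10.3%. Of CpG-rich pairs 457 of 912 (50.1%, 46.8 to 53.4) held a peak. That was 25.4 such pairs per 100 of their genes, beside 29.5% of CpG-rich genes in no pair. For CpG-poor pairs it was 18.6 per 100 genes, beside 10.3% of CpG-poor genes in no pair. These are unlike measures, since 1 pair covers both of its genes and its summit must lie near a start of each. The CpG class of a pair was read midway between its starts, and that of a gene at its start. For CpG-rich genes with 1 annotated start, the shares by gene were 47.1% (238 of 505) and 24.6% (768 of 3124). Within CpG-rich promoters the median signal was 42.3 at divergent and 38 at single-gene promoters, and within CpG-poor ones 33.7 and 34.0.

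**Figure D3:**
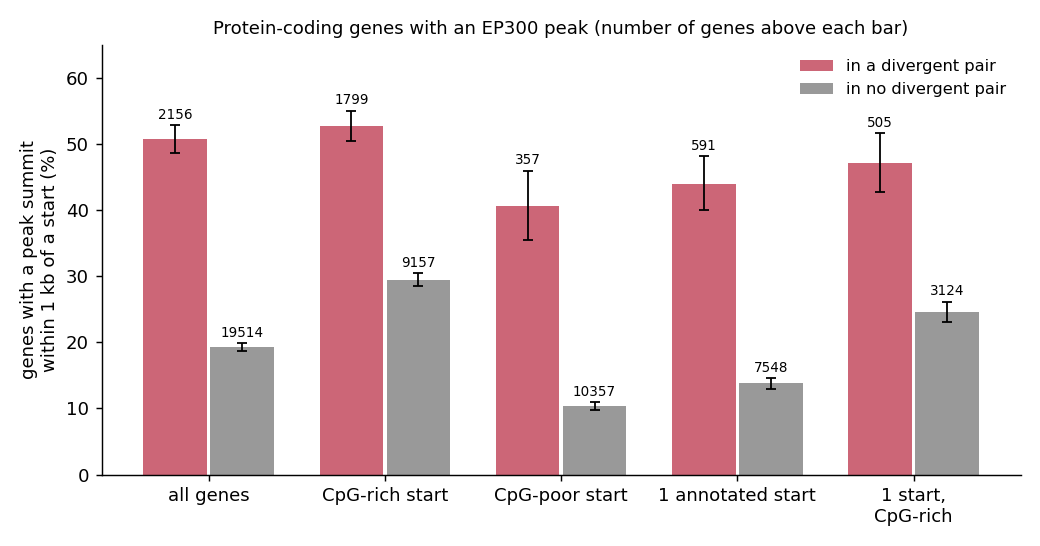
Share of protein-coding genes (%) with an optimal-list summit within 1 kb of a start, for genes in a divergent pair and in no pair, over all genes, by CpG class of the start and for genes with 1 annotated start. Bars start at 0, error bars are exact 95% binomial intervals, and the number of genes stands above each bar. Genes in a pair lie higher in every class (50.7% against 19.3% over all genes), where each shared peak counts for both genes.

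Pairs of middle spacing held a peak most often. The share was 44.7% (205 of 459) where the starts lay 1 to 100 bases apart, 46.1% (136 of 295) at 101 to 200 bases, 59.8% (122 of 204, interval 52.7 to 66.6) at 201 to 400 bases and 44.9% (62 of 138, interval 36.5 to 53.6) at 401 to 1000 bases. The interval at 201 to 400 bases overlapped that of the widest class and lay above those of the narrower ones, 40.1 to 49.3 and 40.3 to 52.0. The strongest peak of a pair had a median signal of 54.0 at 201 to 400 bases and 44.2 to 45.1 in the other 3 classes. A peak of any rank in the authors' list from both replicates together, called the pooled list, lay at 871 of the 1096 pairs (79.5%). Of the 571 pairs without a member, 346 (60.6%) had such a peak, at a median rank of 44710, against 10588 for the pairs with one. The pooled list is not thresholded, and the share of such peaks at other places was not computed.

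Pairs with and without a peak differed in G and C content and in some motifs. In the 300 bases centred between the starts, the median CpG ratio was 0.848 with a peak and 0.828 without, and 87.0% and 79.7% were CpG-rich, while G and C made up 60.3% and 64.0%. A CCAAT box (CCAATCA or CCAATGA, bound by NFY) was in 24.2% (20.6 to 28.1) of those with a peak and 15.9% (13.0 to 19.2) of those without. E2F motifs (TTTNNCGC) were in 14.7% (11.8 to 18) and 7.71% (5.65 to 10.2). The TATA box (TATAAA) was in 7.62% (5.50 to 10.2) and 2.63% (1.48 to 4.30). For ETS motifs the shares were 31.0% and 23.8% and for GATA motifs (AGATAA) 6.48% and 3.33%, with intervals that overlapped. The GC box bound by SP and KLF factors went the other way, with 42.7% and 48.9%, and there too the intervals overlapped. YY1 motifs (AAGATGGC) differed little, with 8.0% and 7.36%.

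The summits centred on the space between the starts. The starts of a member's pair lay a median of 184 bases apart (3 to 1455), and the summit lay a median of 108 bases from their midpoint. Between the starts lay 327 summits (49.8%, 46.0 to 53.7), in the plus-strand gene 197 (30.0%, 26.5 to 33.7) and in the minus-strand gene 132 (20.1%, 17.1 to 23.4). The share between the starts was 24.9% for gaps of 1 to 100 bases, 39.7% for 101 to 200, 68.9% for 201 to 400 and 68.9% for 401 to 1000. The rule sets part of this, since a summit must lie within 1 kb of both starts. Summits inside a gene lay a median of 96 bases past its start. At single-gene promoters 69.2% of summits lay upstream of the nearest start, at a median of 71 bases upstream, while at divergent promoters the median was 7 bases upstream. Part of this contrast is fixed, since between head-to-head starts a summit past the midpoint is nearer to the other start. The lean towards the plus-strand side was also seen at single-gene promoters, with 32.6% of summits downstream of plus-strand starts and 28.4% downstream of minus-strand starts.

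Peaks between the starts were the stronger ones. Their median signal was 46.1, against 34.3 for peaks inside a gene. The difference had the same direction in each class of gap, with 47.4 and 37.1 at 1 to 100 bases, 49.8 and 32.9 at 101 to 200, 51.7 and 29.8 at 201 to 400 and 40.5 and 33.8 at 401 to 1000. When only the strongest peak of each pair was kept, also an alternative chosen after seeing the data, 274 of 512 (53.5%) lay between the starts.

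**Figure D4:**
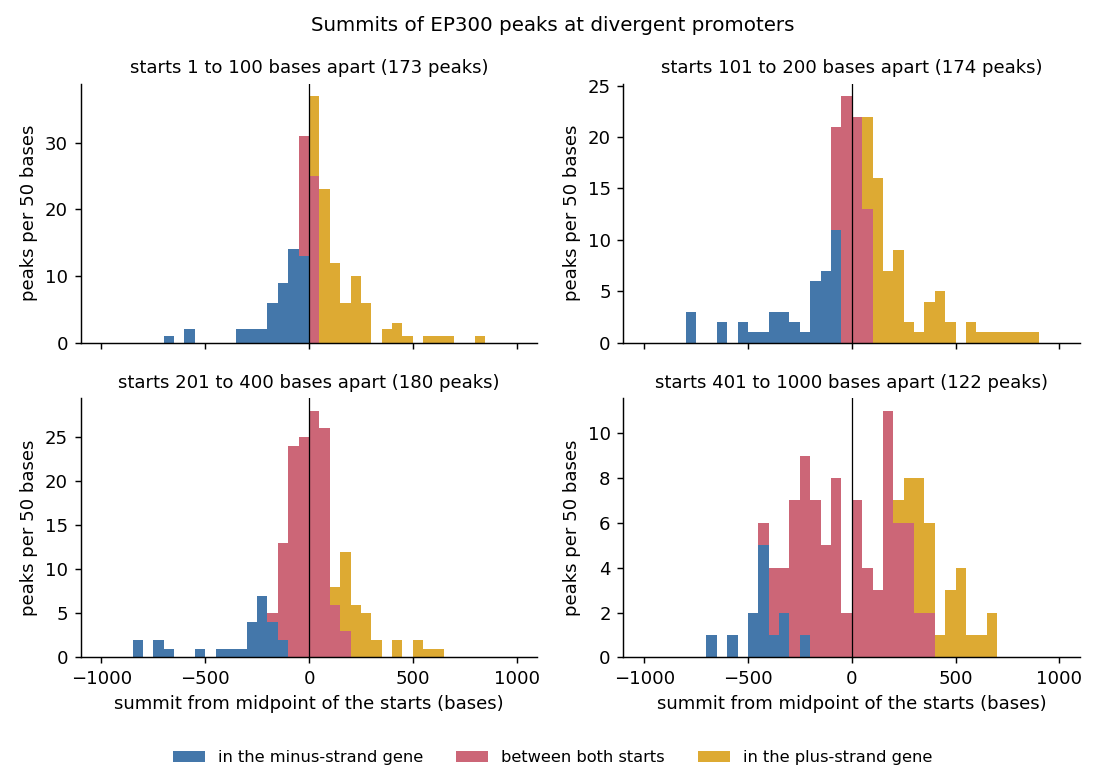
Number of EP300 summits per 50 bases by distance (bases) from the midpoint of both starts, in 4 classes of the distance between the starts, with colours for summits in the minus-strand gene, between the starts and in the plus-strand gene. With starts 1 to 200 bases apart most summits lie inside a gene close to its start, and with starts 201 to 400 bases apart 68.9% lie between them.

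Many pairs held several peaks. Of the 512 pairs 129 (25.2%) had 2 or more members, close to the 25.1% of single genes with a promoter peak. In 13 pairs there were 3, and Pcnx3/Map3k11, which holds a gene of a stress-activated kinase, had 4, with signals of 39.6, 35.7, 27 and 12.4. Over 144 distances, neighbouring summits of a pair lay a median of 218 bases apart (199 at the least), less than the median peak width of 384 bases, so such peaks often overlapped. Whether overlapping peaks are separate sites of EP300 was not tested. In 18 of the 129 pairs (14.0%) there were summits in both genes. At Aldh6a1/Lin52 the strongest peak (180) lay between the starts, with 42.7 in Aldh6a1 and 30.6 in Lin52. Dcaf6/Mpc2, which holds a subunit of the mitochondrial pyruvate carrier, had 89.2 and 25.5 between the starts and 21.4 in Mpc2. At Ap3m1/Adk, which holds adenosine kinase, the values were 77.8 in Ap3m1 and 25.3 and 20.5 in Adk. Sphk2/Rpl18, a lipid kinase and a ribosomal protein, had 70.2, 48.7 and 35.9, of which the first and second lay between annotated starts.

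Motifs around the summits set divergent promoters apart from distal peaks and, less so, from other promoters. For each peak the 300 bases centred on the summit were searched on both strands for 17 short motifs, and few matches of different motifs overlapped. ETS motifs were in 27.9% (24.5 to 31.5) of windows at divergent promoters, 16.5% at single-gene promoters and 2.66% at distal peaks. They were in 11.6% of 21670 windows of 300 bases at gene starts, 1 window per gene. For YY1 the shares were 9.76% (7.59 to 12.3), 4.16%, 1.22% and 3.53%. E2F motifs were in 14.6%, 9.90%, 2.34% and 6.42%, and CCAAT boxes in 18.4%, 14.0%, 6.92% and 12.0%. Within CpG-rich windows the differences between divergent and single-gene promoters were smaller for ETS (30.8% and 25.4%) and for CCAAT boxes (18.2% and 17.0%), and not for YY1 (11.3% and 6.02%). With windows of 100 bases the difference between divergent and single-gene promoters fell from 5.59 to 0.52 percentage points for YY1 and from 11.4 to 5.18 for ETS. The GC box (GGGCGGG) was in 34.5% at divergent, 28.9% at single-gene promoters and 33.4% of the windows at gene starts. Within CpG-rich windows the order of divergent and single-gene promoters turned, with 37.6% and 41.4%.

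Motifs of liver and blood factors were scarcer than at distal peaks. GATA motifs, the sites of the main red cell factors, were in 9.15% (7.05 to 11.6) of divergent, 16.4% of single-gene and 39.3% of distal windows, against 8.13% of the windows at gene starts. In CpG-rich windows the GATA shares were 7.12% and 8.06%. HNF4 motifs (CAAAGNNCA) were in 6.71%, 8.14% and 12.6%, FOXA motifs (TGTTTAC) in 3.51%, 4.95% and 8.14%, and CEBP motifs (TTGCNNAA) in 12.8%, 13.8% and 20.3%, and the first 2 of these factors are leading regulators of hepatocyte genes. AP-1 motifs (TGANTCA) were in 5.03%, 7.10% and 14.5%, and TATA boxes in 7.16%, 9.61% and 14.7%. STAT motifs (TTCNNNGAA) were in 9.76%, 8.93% and 12.9%, and E-boxes (CACGTG) in 7.93%, 8.86% and 5.43%. Within CpG-rich windows the order of divergent and single-gene promoters turned for HNF4 (6.75% and 5.01%), CEBP (11.9% and 10.4%) and AP-1 (4.93% and 4.72%). Rare motifs were NRF1 (GCGCATGC) with 3.81%, 2.40% and 0.386%, CRE (TGACGTCA) with 3.35%, 2.36% and 0.551%, the CACCC box (CCACACCC) with 2.13%, 3.85% and 3.95%, and ZNF143 (ACTACAATT) with 0.305%, 0.808% and 0.137%. No motif at all was found in 91 members (13.9%), against 16.2% at single-gene promoters. A match describes letters only.

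**Figure D5:**
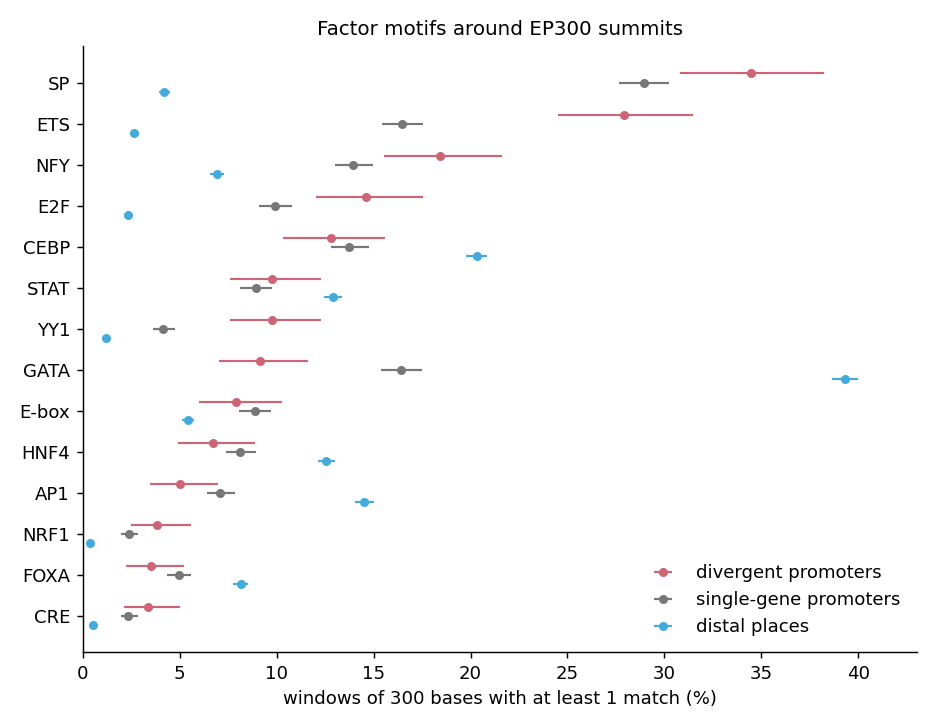
Share (%) of 300-base windows around optimal-list summits with at least 1 match to each of 14 motifs, at divergent promoters, single-gene promoters and distal places, with exact 95% binomial intervals. ETS (27.9%) and YY1 (9.76%) lie highest at divergent promoters, and GATA lies highest at distal places (39.3%).

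Within the divergent promoters, motifs differed in where they lay. Windows of neighbouring members can overlap, so the same site can count in more than 1 window, here and in the shares of windows above. Of all bases in the members' windows 40.6% lay between the starts. CCAAT boxes lay there in 80.0% of 155 matches and CRE in 78.3% of 23, GC boxes in 53.9% and ETS motifs in 52.7% of 239. YY1 motifs lay there in 24.2% of 66 matches, and so mostly inside a gene past its start. The members with the highest signal (at least 60.5) and those with the lowest (at most 27.2), 164 each, held a CCAAT box in 25% and 15.2%, a YY1 motif in 14.6% and 6.71%, and a CRE in 5.49% and 0.610%. The ETS shares lay closer, with 26.8% and 21.3%.

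The share of genes that stood in a pair differed between gene lists, from 0 of 35 erythroid genes to 27 of 67 histone genes, against 9.95% of all genes. No such difference was tested, and the lists hold 163 of the 2156 genes in pairs. In 14 lists of genes, the share with a peak at the pair was read against 1031 of 2156 genes in all pairs (47.8%), and the median signal against 40.9. The counts for genes in no pair have another background, 3768 of 19514 such genes (19.3%) with a summit within 1 kb of a start. Of 78 mitochondrial ribosome genes 26 stood in a pair and 14 of these had a peak (median signal 43.1), the strongest at Mrps18b/Ppp1r10 with 91.6. For respiratory complex I it was 14 of 37 and 8 (median 51.7), led by Ndufa4/Phf14 with 145, from 93.8 in replicate 1 and 48.4 in replicate 2. Of those in no pair, 26 of 52 mitochondrial ribosome and 9 of 23 complex I genes had a promoter peak. In the list of the citric acid cycle and respiratory chain assembly 14 of 37 genes stood in a pair and 9 had a peak (median 51.9), among them Mdh2, Sdhc and Idh3g. Of its genes in no pair, 8 of 23 had a promoter peak. Of 76 cytosolic ribosome genes 13 stood in a pair and 11 had a peak (median 56.3), led by Zwilch/Rpl4, while Rps2 and Rps27 had none. Cytosolic ribosome genes in no pair also had a peak often, at 47 of 63.

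Chaperone genes had a peak at 7 of 8 paired genes (median 33.0), with Cct5/Fam173b, which holds a subunit of the chaperonin TRiC, highest at 96.1. Among chaperone genes in no pair 10 of 15 had one. Proteasome genes stood at the other end. Of 39 genes 9 stood in a pair and 1, Psmb1 of Psmb1/Tbp (31.6), had a peak, whereas 17 of 30 proteasome genes in no pair had one. Among the aminoacyl-tRNA synthetases 3 of 9 paired genes had a peak (median 54.0), with 64.9 at S100pbp/Yars, and 15 of 25 in no pair had one. These lists are small, and no difference between them was tested.

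Of 67 histone genes 27 stood in a pair and 20 had a peak (median 53.9), with 131 at Hist1h2bf/Hist1h2ad. The 20 genes are partners of each other, so each shared peak counts for both. Histone genes in no pair had a promoter peak as often, at 31 of 40. These genes are near-identical copies of each other, and how reads were assigned among them is not given. Of 60 DNA repair genes 23 stood in a pair and 10 had a peak (median 41.3), the strongest at Recql/Golt1b. Of 45 DNA replication genes 11 stood in a pair and 7 had a peak (median 53.2). There Fen1/Tmem258, which holds the flap endonuclease of Okazaki fragments, led with 110, and its summit lay 546 bases inside Fen1. Of those in no pair, 13 of 37 DNA repair and 21 of 34 DNA replication genes had a promoter peak. Cell cycle genes stood in a pair at 3 of 40 (Cdk2, Aurka and Chek2), and all 3 had a peak (median 26.2), with 52.3 at Aurka/Cstf1. In no pair, 18 of 37 cell cycle genes had a promoter peak. Of 32 heme and iron genes 4 stood in a pair, and Uros, Urod and Iscu had a peak (median 50.3), with 119 at Sart3/Iscu. In no pair, 16 of 28 heme and iron genes had a promoter peak. Of the erythroid genes 0 of 35 stood in a pair, and 30 of them had a promoter peak. Of 44 hepatocyte genes Foxa3 and Asl stood in a pair and neither had a peak there, while 33 of the 42 in no pair had a promoter peak.

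Of 16 pairs known as textbook divergent genes, 10 were head to head in this annotation, and 4 of these had a peak, against 47.9% of all pairs. Mcm4/Prkdc, which joins a subunit of the replicative helicase to the catalytic subunit of a DNA repair kinase, had 67.7 in the optimal list, 50.2 in replicate 1 and 11.3 in replicate 2, with starts 489 bases apart. Brca1/Nbr1 had 2 peaks, of 42.2 between the starts (33.8 and 6.87 in the replicates) and 16.8 in Nbr1. Hspd1/Hspe1, the mitochondrial chaperonin and its co-chaperonin, had 32.7, from 24.3 and 8.86, with the summit 3 bases from the midpoint of starts 108 bases apart. A further annotated transcript of Hspd1 starts inside Hspe1. Atm/Npat, a DNA damage kinase and a regulator of histone genes, had 21.5, from 22.2 in replicate 1 and no overlapping peak in replicate 2. These 4 pairs thus spanned moderate to weak signals, and all were higher in replicate 1.

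No member was found at Col4a4/Col4a3, Surf1/Surf2, Psmb9/Tap1, Mrps12/Sars2, Hars/Hars2 and Emc8/Cox4i1. Of these, Surf1/Surf2, Mrps12/Sars2 and Hars/Hars2 had a peak in the pooled list, at ranks 24463, 25503 and 43974, and the other 3 had none. Among the pairs not annotated head to head with protein-coding starts within the distance used were Col4a1/Col4a2, Ppat/Paics, Mcm2/Tpra1, Ndufa13/Yjefn3 and Tmem14c/Pak1ip1. At the edge of the distance rule, the 13 members whose farther start lay over 900 bases away had a median signal of 27 (11.2 to 131), and the 16 peaks just outside it, within 1100 bases, had 35.1 (9.30 to 86.9).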

How the data were processed

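EP300 ChIP-seq peak lists of 2 replicates were used, on mm10 per the labels. The authors deposited 1 list of 300000 peaks per replicate, a pooled list of both, and an optimal and a conservative IDR list. Per the descriptions deposited with them each was made with a control alignment. Neither the aligner or peak caller with its version nor the IDR threshold is named (not given in the sources used here). The signal value in the deposited lists is the authors' score per peak, and the IDR score of the IDR lists was used only to describe them. Both IDR lists come from the replicates, so they are not independent of them. The files held 0 columns of other samples.

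The optimal list holds 26883 peaks, of which the 26844 on chromosomes 1 to 19 and X were placed by summit against starts of protein-coding transcripts of 21670 genes (GENCODE M21). A place was matched to a replicate by an overlap of at least 1 base, taking the strongest such peak. CpG ratio, G and C share and motifs were read in 300-base windows of GRCm38.p6. Medians and counts were computed with Python 3.11.15, pandas 2.3.3 and scipy 1.17.1, and the placing was tested on simulated data. With 1 group no test was run. Alternatives were each replicate alone, the conservative list, distances of 500 bases and 2 kb, other sets of starts, a stricter match, other windows and single-gene promoters rich in CpG.

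The members were taken by position alone, yet that choice and the gene lists were made with earlier results of these data known. Named were the 15 strongest and 5 weakest members, the strongest of each gene list with some of its genes, all 16 known pairs, the 2 highest and 2 lowest replicate ratios and 5 pairs with several peaks. Peaks elsewhere are given only for comparison. A few items that this rule names are not reported here.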

Additional observations from a re-analysis of the deposited data

How the results depend on the processing

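The share of peaks at divergent promoters, 2.44%, was 1.97 to 2.72% in the highest peaks of either replicate alone, 2.26% in the conservative list, 2.00% with summits within 500 bases, 3.04% within 2 kb and 1.73% with the 5′-most start per gene. The share of genes in pairs with a peak, 50.7%, was 45.2 to 58.9% with 1 replicate left out, 42.6% in the conservative list, 47.4% within 500 bases, 53.1% within 2 kb and 47.5% with the 5′-most start. Its excess over other genes, 31.4 percentage points, was 27.2 to 36.4 with 1 replicate left out and 26.1 in the conservative list. With the 5′-most start 41.6% of summits lay between the starts, against 49.8%. Members found in both replicates, 90.7%, were 68.0% when 50% of the peak had to be covered and 67.8% with summits within 100 bases. The cause of these shifts was not tested. The log2 signal ratio to single-gene promoters ranged from 0.09 to 0.20 over the settings run and kept its sign. Within CpG-poor promoters the order of the medians turned, with 33.7 at divergent and 34.0 at single-gene promoters. With summits matched within 100 bases the medians in replicate 2 were nearly equal, 13.2 and 13.0. The sign of the difference from single-gene promoters held in 8 of 8 settings for each motif except CEBP and E-box, with 6 of 8, but within CpG-rich windows it turned for the GC box, HNF4, CEBP and AP-1. Sizes moved: the lowest and highest differences were 0.52 and 5.94 percentage points for YY1, 5.18 and 13.6 for ETS, −10.6 and −3.95 for GATA and −3.30 and −0.098 for AP-1. No paired analysis was possible because there is 1 group, and no result comes from a test. Depth limits are unknown without read counts, and a pair without a member is one with no peak past the authors' threshold.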
